A study of Mus musculus with 70 samples.

Results

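The miR-132 and miR-212 precursors form a pair of neighbouring microRNA (miRNA) genes on mouse chromosome 11. Each precursor gives a mature miRNA from its 3p arm and one from its 5p arm. The members described here were mmu-miR-132-3p, mmu-miR-132-5p, mmu-miR-212-3p and mmu-miR-212-5p, taken by name from the small RNA count table, and they are 4 of its 1882 features. They were measured in wild-type C57BL/6 mice at 3 ages: the postnatal days 6 (P6) and 15 (P15), and 8 weeks after birth (8W). Each whole brain was digested with papain after the meninges were removed, and the suspension was split on a dish coated with an antibody against CD45, a surface protein of leukocytes. The CD45+ cells that stuck to the dish are called microglia here, and the CD45- cells that did not stick are called bulk cells. Both fractions came from every mouse, so 34 mice gave 68 libraries: 4 female and 6 male mice at P6, 6 and 6 at P15, and 6 and 6 at 8W. No mouse was treated or genetically altered. CD45 is also carried by monocytes and macrophages, the bulk fraction mixes neurons, glia and vascular cells, and the whole brain averages over its regions.

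Library totals ran from 1678034 to 8747394 counts, with the lowest in P6 microglia (1678034 to 4066435) and the highest in P6 bulk cells (5979569 to 8747394). The fractions were checked against miRNAs that mark cell types. All 5 of 5 myeloid markers were higher in microglia, where their summed level was 57.7 to 177 times that of bulk cells of the same mouse at P6, 28.9 to 90.5 times at P15 and 59.1 to 172 times at 8W. Of all features, 17.4%, 21.3% and 21.2% were called higher in microglia at these ages, and 10.6%, 18.7% and 23.7% lower. All 7 of 7 neuronal markers, led by miR-124-3p, miR-138-5p and miR-218-5p, were lower in microglia but had reads in every library. The 4 erythroid markers were higher in microglia too, at a median of 6.48, 10.5 and 4.95 times bulk cells at P6, P15 and 8W, and had reads in every library. Both endothelial markers were lower in microglia, at a median of 0.105, 0.102 and 0.185 times bulk cells at the same ages. The 4 markers of mural cells and fibroblasts were not called different between the fractions at any age, at 1.17, 0.734 and 0.915 times bulk cells. The part of these cells in the members' values was not tested.

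miR-132 and miR-212 are known as activity-regulated miRNAs of neurons. Calcium entry and neurotrophin signalling act through the transcription factor CREB to raise their shared transcript, and the mature miRNAs silence messenger RNAs through pairing of the seed, the bases near the 5′ end. miR-132 is known for promoting the growth of dendrites and spines. In leukocytes miR-132 has been tied to dampening of inflammatory signalling.

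The 4 mature sequences are shown because they separate which members could pair with the same targets. They are from RefSeq annotation of GRCm38.p6, all lie on the plus strand, are written 5′ to 3′, and have the seed (bases 2 to 8) in capitals.
mmu-miR-132-3p: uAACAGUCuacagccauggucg
mmu-miR-212-3p: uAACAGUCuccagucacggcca
mmu-miR-132-5p: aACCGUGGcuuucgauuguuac
mmu-miR-212-5p: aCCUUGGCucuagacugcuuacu
The 3p arms share the seed AACAGUC, which no other of the 1679 mature mouse miRNAs in the table of sequences carries. They are identical from base 1 to base 9 and at 17 of 22 bases in all. The differences, as the miR-132-3p base, the position from the 5′ end and the miR-212-3p base, are A10C, C14U, U17C, U20C and G22A. All 5 differences lie past the seed. Each 5p arm has a seed found in no other listed mature miRNA.

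mmu-miR-212-5p lies at chr11:75173403-75173425 and mmu-miR-212-3p at chr11:75173443-75173464, inside the Mir212 precursor at chr11:75173388-75173478. mmu-miR-132-5p lies at chr11:75173686-75173707 and mmu-miR-132-3p at chr11:75173723-75173744, inside the Mir132 precursor at chr11:75173682-75173747. The precursors are 203 bases apart. Both fall in the intron between exon 1 (chr11:75172560-75172597) and exon 2 (chr11:75173978-75174161) of the non-coding transcript 1700016P03Rik, which runs from 75172560 to 75177633 on the same strand.

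The 3p arms carried nearly all of the reads. Over the 68 libraries mmu-miR-132-3p had 593219 counts, mmu-miR-212-3p had 82210, mmu-miR-132-5p had 5787 and mmu-miR-212-5p had 36. mmu-miR-132-3p and mmu-miR-212-3p had reads in all 68 libraries, with at least 401 and 49 counts, and mmu-miR-132-5p had reads in 67. The precision therefore falls steeply from the 3p arms to the 5p arms. Ligation during library preparation favours some ends over others, so ratios between different miRNAs were compared across groups and were not read as ratios of molecules.

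mmu-miR-212-5p was at the edge of detection. In bulk cells it had 34 counts, spread over 3 of 10 libraries at P6 (10 counts), 3 of 12 at P15 (11 counts) and 9 of 12 at 8W (13 counts). In microglia it had 1 count in 1 of 12 libraries at P15, 1 count in 1 of 12 at 8W, and 0 of 29941470 counts at P6, which allows up to 0.1 CPM (counts in 1000000 counts of the library). No library held more than 6. It did not reach the minimum for testing, 1 CPM in at least 5 libraries, so 3 of the 4 members were among the 1072 features tested.

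Levels below are CPM scaled by the trimmed mean of M values (TMM), which corrects for libraries dominated by a few abundant miRNAs. mmu-miR-132-3p, the dominant arm of its precursor, had in microglia a lowest, median and highest level of 152, 325 and 502 at P6, 184, 426 and 665 at P15, and 671, 1084 and 2027 at 8W. In bulk cells the same 3 values were 228, 411 and 1270 at P6, 645, 1015 and 1623 at P15, and 5702, 7614 and 12740 at 8W. The fractions overlapped at P6 and only just at P15, and at 8W every bulk library was above every microglial library. The order of the 6 group medians was P6 microglia, P6 bulk, P15 microglia, P15 bulk, 8W microglia and 8W bulk. Neighbours in that order had overlapping ranges, except that 8W bulk cells stood clear of the rest.

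mmu-miR-212-3p, which shares its seed with mmu-miR-132-3p, was lower at every age. Its lowest, median and highest levels in microglia were 24.9, 42.1 and 60.6 at P6, 53.6, 84.9 and 118 at P15, and 133, 197 and 295 at 8W. In bulk cells they were 77.1, 101 and 179 at P6, 198, 264 and 335 at P15, and 618, 775 and 1289 at 8W. At every age each bulk library was above each microglial library of that age.

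mmu-miR-132-5p, the minor arm, had in microglia 0, 2.23 and 3.80 CPM at P6, 1.27, 2.83 and 4.77 at P15, and 7.63, 13.3 and 49.2 at 8W. In bulk cells it had 1.495, 8.54 and 16.6 at P6, 5.06, 12.8 and 36.8 at P15, and 42.0, 66.2 and 95.2 at 8W. P6 microglial libraries held 0 to 17 counts of it, so single counts move these values. The fractions overlapped at P6 and at 8W, through 1 microglial library of 49.2 CPM at 8W, and did not overlap at P15.

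**Figure D1:**
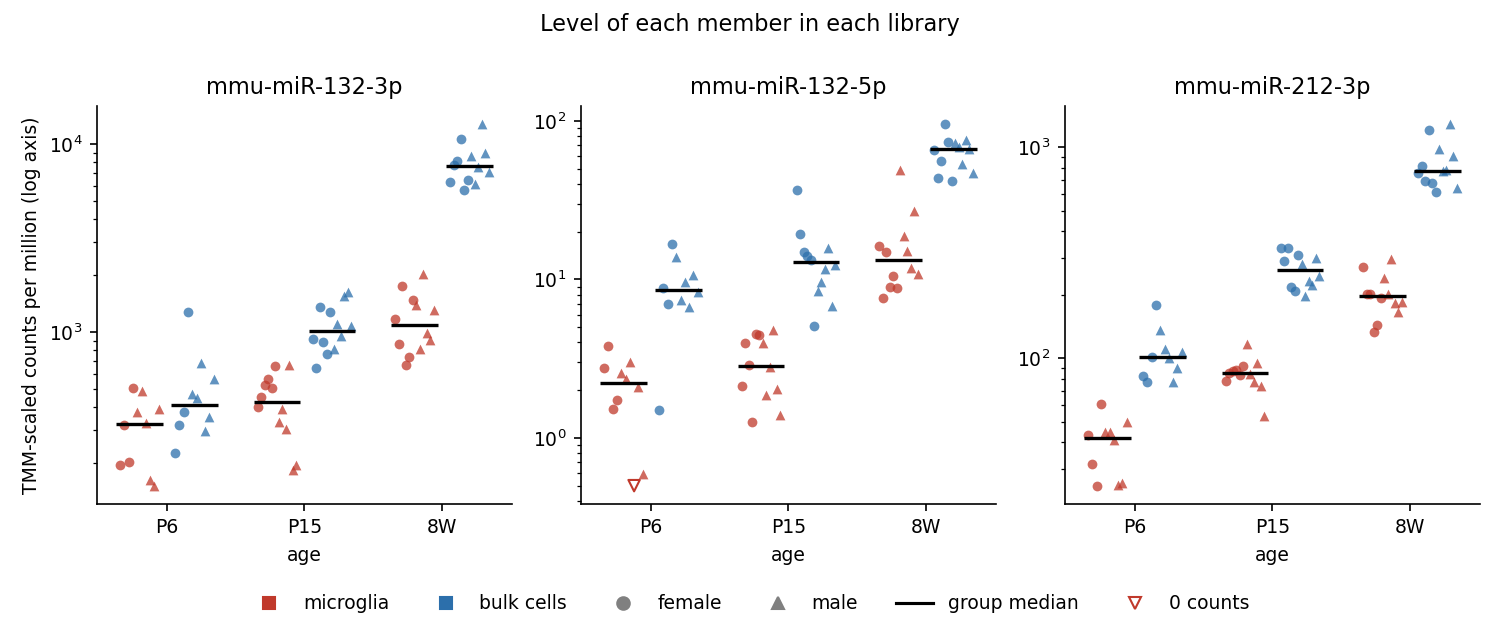
Level of each tested member in each library, in TMM-scaled CPM on a log axis, by age, for microglia (red) and bulk cells (blue); circles are female mice, triangles male mice, black lines group medians, and the open triangle a library with 0 counts. In all panels the 8W bulk libraries are the highest group, and for mmu-miR-132-3p the fractions overlap at P6.

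The first comparison asked which miRNAs differ between microglia and the surrounding brain cells. With ages pooled, all 3 tested members were lower in microglia. mmu-miR-132-3p fell by 1.6 ± 0.12 on the log2 scale (SE, n = 34 mice, adjusted p = 3.64e-06), a level 0.330 times that of bulk cells, and was lower in 32 of 34 mice. mmu-miR-212-3p fell by 1.71 ± 0.08 (adjusted p = 4.46e-12) and was lower in 34 of 34 mice. mmu-miR-132-5p fell by 2.09 ± 0.20 (adjusted p = 1.03e-06) and was lower in 33 of 34 mice. Of all 1072 features, 21.8% were called lower in this comparison. The test was limma-voom with the TREAT statistic, which asks whether the change exceeds 2-fold, and p-values were adjusted over all features by the Benjamini-Hochberg method. In mixed cells, fewer cells of a type and less RNA per cell cannot be told apart.

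The size of the deficit in microglia depended on age for mmu-miR-132-3p. At P6 its difference was -0.62 ± 0.22 (95% interval -1.07 to -0.17, n = 10 mice, adjusted p = 1), lower in 8 of 10 mice. At P15 it was -1.38 ± 0.19 (n = 12, adjusted p = 0.0667), lower in 12 of 12 mice. At 8W mmu-miR-132-3p fell by 2.80 ± 0.18 (n = 12, adjusted p = 3.90e-14), a level 0.143 times that of bulk cells. The P15 value passed in 8 of 11 other analyses, including the one with each mouse as a fixed replicate block (adjusted p = 0.0395), and without any 1 of 7 of the 12 mice. Among the 8 was the limma test against no change in place of 2-fold (adjusted p = 3.21e-09), which is easier to pass.

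mmu-miR-212-3p was already lower at P6, where it fell by 1.43 ± 0.17 (adjusted p = 0.0261). Its difference was -1.64 ± 0.13 at P15 (adjusted p = 1.87e-05) and -2.065 ± 0.12 at 8W (adjusted p = 3.82e-12). The difference of mmu-miR-132-5p was -2.05 ± 0.43 at P6 (adjusted p = 0.0343), -2.13 ± 0.34 at P15 (adjusted p = 0.00240) and -2.10 ± 0.22 at 8W (adjusted p = 6.08e-06). So 2 of 3 members were called lower at P6, 2 of 3 at P15 and 3 of 3 at 8W, against 10.6%, 18.7% and 23.7% of all features. The P6 call of mmu-miR-212-3p was lost with scaling by library size alone (adjusted p = 0.0562), with P6 female mouse 6 included (adjusted p = 0.0738) and without P6 female mouse 3 (adjusted p = 0.0600). That of mmu-miR-132-5p was lost without P6 female mouse 3, P6 female mouse 5 or P6 male mouse 4 (adjusted p up to 0.161).

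A second question was how miRNAs change as microglia mature. From P6 to 8W all 3 tested members rose in microglia. mmu-miR-212-3p rose by 2.36 ± 0.17 (adjusted p = 5.97e-10), mmu-miR-132-5p by 2.96 ± 0.45 (adjusted p = 0.000252) and mmu-miR-132-3p by 1.95 ± 0.23 (adjusted p = 0.000394). In none of the 3 did the 8W libraries overlap the P6 libraries, a measure that was not counted over all features. Of all features 7.18% were called higher. Under library size alone the whole table shifted by -0.46 at its median and the rise of mmu-miR-132-3p was 1.49 (adjusted p = 0.0905).

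Between neighbouring ages fewer changes were called in microglia. From P15 to 8W mmu-miR-132-5p rose by 2.34 ± 0.36 (adjusted p = 0.00746). The differences of mmu-miR-132-3p, 1.48 ± 0.21 (adjusted p = 0.185), and of mmu-miR-212-3p, 1.24 ± 0.14 (adjusted p = 0.584), did not pass the test of exceeding 2-fold, although the 8W and P15 libraries did not overlap for either. Overlap was not counted over all features. So 1 of 3 was called higher, against 1.77% of all features. From P6 to P15 the differences were 1.12 ± 0.18 for mmu-miR-212-3p, 0.62 ± 0.51 for mmu-miR-132-5p and 0.48 ± 0.23 for mmu-miR-132-3p, and 0 of 3 were called (adjusted p = 1 each), against 0.746%. Tested against no change in place of 2-fold, mmu-miR-212-3p passed (adjusted p = 3.23e-07), while mmu-miR-132-5p and mmu-miR-132-3p did not (adjusted p = 0.377 and 0.107). That test called 170 of all 1072 features higher and 196 lower.

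Bulk cells showed the larger rise of mmu-miR-132-3p. From P6 to 8W it rose by 4.14 ± 0.21 (adjusted p = 1.05e-21), a 17.6-fold increase, against a 3.87-fold increase in microglia. mmu-miR-132-5p rose by 3.01 ± 0.25 (adjusted p = 1.24e-10) and mmu-miR-212-3p by 2.999 ± 0.14 (adjusted p = 8.03e-21). All 3 were thus called higher, against 13.2% of all features. None of the 3 had overlapping groups, which was not counted over all features. All 3 also rose from P15 to 8W, by 2.90 ± 0.19 for mmu-miR-132-3p (adjusted p = 3.96e-13), 2.32 ± 0.23 for mmu-miR-132-5p (adjusted p = 2.80e-06) and 1.66 ± 0.13 for mmu-miR-212-3p (adjusted p = 1.83e-05), against 6.06% of all features.

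From P6 to P15 in bulk cells 0 of 3 members were called higher, against 1.87% of all features. The differences were 1.34 ± 0.14 for mmu-miR-212-3p (adjusted p = 0.198), 1.24 ± 0.21 for mmu-miR-132-3p and 0.69 ± 0.28 for mmu-miR-132-5p (adjusted p = 1 for both). The P15 libraries of mmu-miR-212-3p were all above the P6 libraries, and this difference passed when any 1 of 13 of the 22 mice was left out. The mmu-miR-132-3p difference was 1.595 (adjusted p = 0.0593) without P6 female mouse 5, whose bulk library stood at 1270 CPM beside 228 to 375 in the other 3 female P6 mice. With library size alone the P15 to 8W rise of mmu-miR-212-3p in bulk cells was 1.19 (adjusted p = 0.315), where the median of all features shifted by -0.48.

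Whether the age change differed between the fractions was tested by an interaction term. From P6 to 8W the rise of mmu-miR-132-3p was smaller in microglia than in bulk cells by 2.18 ± 0.29 on the log2 scale (difference -2.18, adjusted p = 0.000669), beside a median of -0.49 over all features. The same term was -0.64 ± 0.21 for mmu-miR-212-3p (95% interval -1.05 to -0.23) and -0.05 ± 0.49 for mmu-miR-132-5p (interval -1.02 to 0.92), neither past the test (adjusted p = 1). So 1 of 3 was called lower, against 7.93% of all features. For P15 to 8W the terms were -1.43 ± 0.26 for mmu-miR-132-3p (adjusted p = 0.627), -0.43 ± 0.18 for mmu-miR-212-3p and 0.03 ± 0.40 for mmu-miR-132-5p, with 0 of 3 called against 1.87%. For P6 to P15 they were -0.76 ± 0.30, -0.21 ± 0.21 and -0.08 ± 0.55 in the same order, with 0 of 3 called against 1.12%.

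The ratio of 2 members within a library does not depend on the scaling between libraries. In microglia mmu-miR-132-3p had a median of 8.05 counts for each count of mmu-miR-212-3p at P6 (range 4.51 to 10.8), 5.20 at P15 (2.48 to 7.11) and 5.44 at 8W (4.02 to 8.70). In bulk cells the median was 3.97 at P6 (2.75 to 7.11), 4.09 at P15 (2.23 to 6.99) and 9.53 at 8W (7.93 to 11.8). The order of the fractions thus turned over: the ratio was higher in microglia in 10 of 10 mice at P6 and lower in microglia in 12 of 12 mice at 8W.

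On the log2 scale the ratio in microglia minus that in bulk cells of the same mouse was 0.82 ± 0.44 at P6 (mean ± SD, n = 10, exact paired permutation test, two-sided, p = 0.00195, adjusted p = 0.00502 over 18 tests of ratios). It was 0.26 ± 0.67 at P15 (n = 12, exact p = 0.199, adjusted p = 0.224) and -0.74 ± 0.22 at 8W (n = 12, exact p = 0.000488, adjusted p = 0.00220). The P6 and 8W values did not overlap between mice, running from 0.22 to 1.42 and from -1.13 to -0.44. Their difference was -1.56 ± 0.15 (SE, permutation test, p = 2e-05, the smallest that 100000 resamples can give, adjusted p = 0.00012 over 6 such tests). This last test was added after the values had been seen.

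Within a fraction, the ratio rose in bulk cells by 1.13 ± 0.15 from P6 to 8W and by 1.24 ± 0.14 from P15 to 8W (SE, permutation tests, p = 2e-05 and adjusted p = 0.00018 for both), with no overlap between ages. In microglia it fell by 0.67 ± 0.19 from P6 to P15 (permutation p = 0.00190, adjusted p = 0.00502) and was 0.43 ± 0.16 lower at 8W than at P6 (permutation p = 0.0134, adjusted p = 0.0242), with overlapping ages. The last value had an adjusted p of 0.05 without P6 male mouse 2. Bulk P15 minus P6 was -0.11 ± 0.19 and microglia 8W minus P15 was 0.24 ± 0.18 (permutation tests, adjusted p = 0.576 and 0.224).

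At P15 the difference between the fractions depended on sex. In the 6 female mice it was higher in microglia in every mouse, by 0.56 to 1.25 on the log2 scale. In the 6 male mice the difference ran from -1.13 to 0.01 and was above 0 in 1 mouse. The means differed by 1.10, with 0.81 in females and -0.29 in males (exact permutation test, two-sided, p = 0.00216, the smallest for 6 against 6, adjusted p = 0.0130 over 6 tests added after the values had been seen). The labels give no batch, so a batch that followed sex at this age cannot be told apart from sex. At P6 and 8W the sexes differed by -0.04 and 0.01 (exact permutation tests, adjusted p = 0.961 for both). Library totals at P15 tended to be higher in females. In bulk cells they ran from 3580323 to 6763115 in females and from 2795957 to 4076911 in males. In microglia they ran from 4160418 to 5420071 and from 3220957 to 4407796. The part of library depth in the P15 sex difference was not tested.

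**Figure D2:**
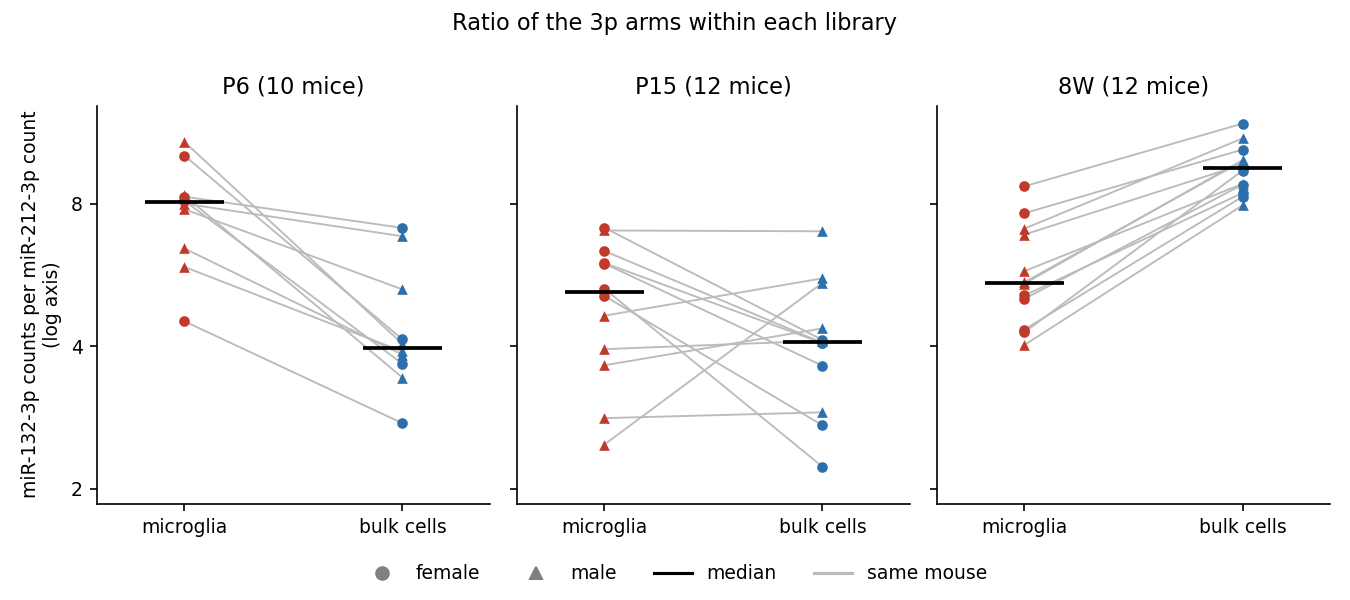
Counts of miR-132-3p for each count of miR-212-3p in each library (log axis), with grey lines joining the fractions of a mouse, circles for female and triangles for male mice, and black lines at the medians. The lines fall from microglia to bulk cells in all 10 mice at P6 and rise in all 12 mice at 8W.

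The ratio between the arms of the miR-132 precursor turned over as well. The median number of mmu-miR-132-3p counts for each mmu-miR-132-5p count was 125 in microglia and 56.2 in bulk cells at P6, 132 and 88.9 at P15, and 78.6 and 138 at 8W. The log2 ratio was higher in microglia in 9 of 10 mice at P6 (1.59 ± 1.48, SD, exact permutation p = 0.00781, adjusted p = 0.0156) and lower in 11 of 12 mice at 8W (-0.71 ± 0.71, exact permutation p = 0.00146, adjusted p = 0.00502). P6 microglial libraries held 0 to 17 counts of mmu-miR-132-5p. The 0 was in P6 male mouse 4, whose ratio of 997 was set by the 0.5 added to counts. Without that mouse the P6 mean was 1.26, and each left-out mouse kept the call (exact permutation tests, adjusted p up to 0.0312). At P15 the mean was 0.74 ± 1.27 (exact permutation p = 0.0688, adjusted p = 0.0953). In bulk cells it rose by 1.18 ± 0.24 from P6 to 8W (SE, permutation p = 0.00012, adjusted p = 0.00072). In microglia it fell by 0.86 ± 0.30 from P15 to 8W (permutation p = 0.00676, adjusted p = 0.0152) and by 1.12 ± 0.47 from P6 to 8W (permutation p = 0.0216, adjusted p = 0.0354), a call lost with 7 of 22 left-out mice.

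No sex difference of a member's level was called in any fraction or age. Male minus female differences over the 3 tested members and 6 groups had an adjusted p of 1 by TREAT, and 0 of all 1072 features (0% in each of the 6 groups) were called, also by edgeR and DESeq2. Against no change in place of 2-fold, limma called 2 features in P6 microglia and 19 in P15 bulk cells, none of them a member, and the groups held 14 to 164 features at an unadjusted p under 0.05. Those features included mmu-miR-132-3p in P15 microglia, at -0.70 ± 0.30, and mmu-miR-132-5p in 8W microglia, at 0.81 ± 0.38; their adjusted p in the same limma test was 0.959 and 0.981.

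The neuronal markers were called lower in microglia in 7 of 7 at P6, P15 and 8W, against 10.6%, 18.7% and 23.7% of all features. From P6 to 8W 1 of 7 rose in microglia (7.18% of all features) and 2 of 7 rose in bulk cells (13.2% of all features), with median differences of 0.46 and 1.20. In the interaction over that interval 0 of 7 were called, with a median of -0.31 beside -0.49 over all features. The sum of the 7 markers ran from 20091 to 46081 CPM in P6 microglia and from 48193 to 158877 in P6 bulk cells. It ran from 13391 to 46559 and from 81378 to 162272 at P15, and from 20424 to 57930 and from 142649 to 232999 at 8W. No defining marker was at 0 in any library. As a share of bulk cells of the same mouse the marker sum had a median of 0.347 at P6, 0.284 at P15 and 0.169 at 8W.

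The same share was 0.621, 0.418 and 0.147 for mmu-miR-132-3p at P6, P15 and 8W. For mmu-miR-212-3p it was 0.371, 0.316 and 0.254, and for mmu-miR-132-5p it was 0.207, 0.223 and 0.240. The single neuronal markers had log2 differences between the fractions from -2.26 to -1.52 at P6 and from -2.80 to -2.03 at 8W. At P6 those of mmu-miR-132-3p (-0.62) and mmu-miR-212-3p (-1.43) were both smaller in size than any of the 7. At 8W mmu-miR-132-3p (-2.80) was at the low end of the markers and mmu-miR-212-3p (-2.065) near the high end. The 4 oligodendrocyte markers had shares of 0.407, 0.102 and 0.0773. From P6 to 8W they rose in 4 of 4 in bulk cells (median 4.14) and in 3 of 4 in microglia (median 1.67), and the interaction was called lower in 4 of 4 (median -2.44), against 13.2%, 7.18% and 7.93% of all features. The values of mmu-miR-132-3p in the same comparisons were 4.14, 1.95 and -2.18. Their summed level ran from 515 to 1056 CPM in microglia and 1212 to 2649 in bulk cells at P6, from 1201 to 3487 and 10289 to 18617 at P15, and from 1862 to 3421 and 23352 to 41673 at 8W, with none at 0. The part of RNA carried over from other cells in the microglial values was not tested.

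**Figure D3:**
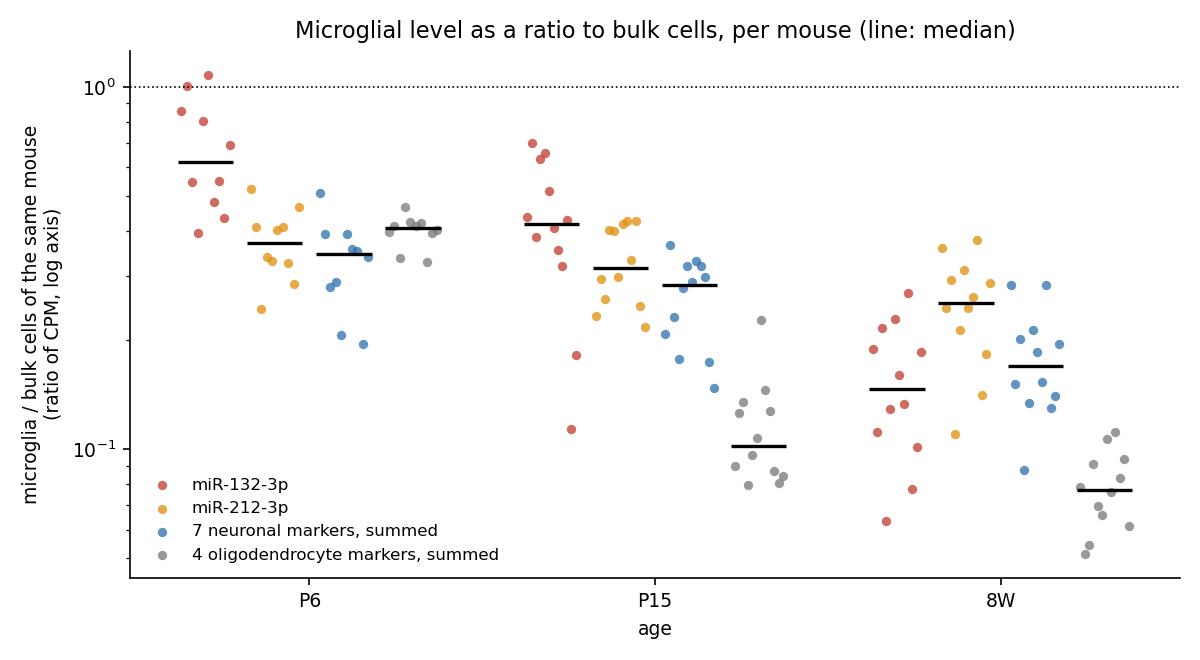
Level in microglia divided by the level in bulk cells of the same mouse (ratio of CPM, log axis), by age, for miR-132-3p (red), miR-212-3p (orange), the sum of 7 neuronal markers (blue) and the sum of 4 oligodendrocyte markers (grey); each point is a mouse, black lines are medians and the dotted line marks equal levels. The median of miR-132-3p falls from 0.621 at P6 to 0.147 at 8W, and that of miR-212-3p from 0.371 to 0.254.

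Across mice of one age and fraction, log2 levels were correlated with the log2 marker sum, in 12 relations; both sides share the scaling of their library. In 8W microglia mmu-miR-212-3p followed the marker sum (n = 12, Pearson r = 0.908, permutation p = 4e-05, adjusted p = 0.00048; Spearman correlation 0.888, adjusted p = 0.00264), with r = 0.833 without the 2 mice farthest from the median. mmu-miR-132-3p also followed it (n = 12, r = 0.781, permutation p = 0.00214, adjusted p = 0.0128; Spearman correlation 0.727, adjusted p = 0.0578), with r = 0.568 without those mice. In 8W microglia with miR-124-3p left out of the sum, r was 0.721 for mmu-miR-132-3p and 0.923 for mmu-miR-212-3p. Without the 2 mice farthest from the median, these were 0.492 and 0.851. In P6 bulk cells the relations of mmu-miR-132-3p (n = 10, r = 0.823) and mmu-miR-212-3p (n = 10, r = 0.805) also passed (permutation, adjusted p = 0.0181 for both), with r of 0.352 and 0.538 without the 2 mice farthest from the median. With miR-124-3p left out of the sum, these values without 2 mice were 0.348 and 0.749, so the relation of mmu-miR-132-3p rests on those mice under both sums. The other 8 relations had r from -0.109 to 0.655 and adjusted p from 0.0524 to 0.743 (permutation).

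**Figure D4:**
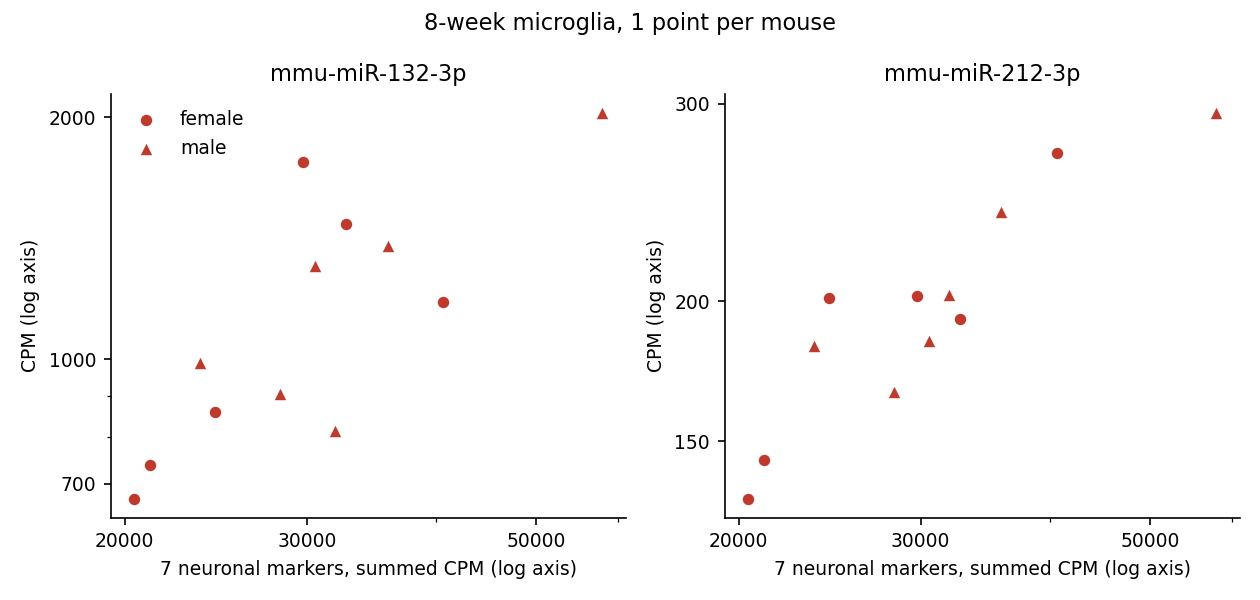
CPM of miR-132-3p (left) and miR-212-3p (right) in 8W microglia against the summed CPM of 7 neuronal markers, all on log axes, with 1 point for each of 12 mice, circles female and triangles male. Both rise with the marker sum, with Pearson r of 0.781 and 0.908 on the log2 scale.

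The members varied together. Over all 68 libraries, which share ages, fractions and mice, the log2 levels of mmu-miR-132-3p and mmu-miR-212-3p had r = 0.940, those of mmu-miR-132-5p and mmu-miR-212-3p had r = 0.905, and those of the miR-132 arms had r = 0.873. Within the 34 microglial libraries the values were 0.887, 0.832 and 0.804. Among 487 other annotated miRNAs with a mean log2 CPM of at least 3, those most like mmu-miR-132-3p were miR-222-3p (r = 0.933), miR-129-1-3p (0.925), miR-1a-3p (0.911), miR-129-2-3p (0.904) and miR-23b-3p (0.894). Those most like mmu-miR-212-3p were miR-129-1-3p (0.966), miR-330-5p (0.949), miR-129-2-3p (0.943), miR-139-5p (0.941) and miR-222-3p (0.938). miR-129-2-3p is 1 of the 7 neuronal markers, and miR-1a-3p is best known from muscle. These miRNAs had their lowest medians in P6 microglia and its highest in 8W bulk cells, as for miR-129-1-3p at 26.1 and 853 CPM.

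A list of 14 other miRNAs known to respond to neuronal activity was set beside the members; miR-138-5p is also among the neuronal markers. With ages pooled 11 of 14 were lower in microglia (21.8% of all features), 1 was higher (23.3%) and 2 were not past the test, with a median log2 difference of -1.72 beside 0.29 over all features. By age 4 of 14 were lower at P6, 10 at P15 and 9 at 8W, against 10.6%, 18.7% and 23.7% of all features. In the same comparisons 1, 2 and 1 of 14 were higher, against 17.4%, 21.3% and 21.2%. The summed level of the list was not lower in microglia, with a median of 1.07, 1.34 and 1.34 times bulk cells at these ages. The most abundant, miR-181a-5p, had a difference of 0.34 ± 0.05 (adjusted p = 1), miR-191-5p rose by 2.11 ± 0.05 (adjusted p = 4.04e-33) and miR-138-5p fell by 2.41 ± 0.07 (adjusted p = 1.52e-27). From P6 to 8W 1 of the 14 rose and 1 fell in microglia, and 2 rose in bulk cells, with medians of -0.51 and 0.59 beside -0.17 and 0.32 over all features. Of all features 7.18% rose and 9.42% fell in microglia and 13.2% rose in bulk cells, so these counts were near the background. The one that rose in microglia was miR-191-5p (1.54 ± 0.08, adjusted p = 1.30e-07) and the one that fell was miR-134-5p (-2.13 ± 0.16, adjusted p = 6.49e-09), a regulator of spine size. In bulk cells miR-191-5p rose by 1.33 ± 0.09 (adjusted p = 0.00109) and miR-138-5p by 1.42 ± 0.13 (adjusted p = 0.00450). The largest rise of the list in bulk cells, 1.42, was below the 2.999 to 4.14 of the tested miR-132 and miR-212 arms; the list and the arms were not tested against each other. The interaction from P6 to 8W was called lower in 2 of 14, against 7.93% of all features, for miR-329-3p (-2.005 ± 0.205, adjusted p = 5.34e-05) and miR-381-3p (-1.67 ± 0.25, adjusted p = 0.0338), with a list median of -0.43 beside -0.49 over all features.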

How the data were processed

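Small RNA libraries were made from CD45+ and CD45- cells of the same mice. The deposited table holds raw read counts per miRNA; the authors trimmed adapters and filtered reads by size with fastp 0.20.0, then mapped them with miRDeep2 to miRBase mature miRNAs and to the mouse genome (mm10, GRCm38). The 70 deposited libraries included 2 of P6 female mouse 6, which are not among the libraries of the study's source data and were set aside, leaving 68 libraries with 1678034 to 8747394 counts. No pair of libraries was identical, and 0 columns lacked a sample. Of 2029 entries, the entry with the largest total was kept for each of 1885 names, and 3 unannotated candidates with the same counts as another candidate were dropped, leaving 1882 features. Counts cover reads, not molecules, so limits set by a count of 0 (3 counts of the total) cover counting error only.

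The 1072 features that reached 1 CPM in 5 or more libraries were scaled by TMM and fitted with limma 3.58.1 and edgeR 4.0.16 in R 4.3.3: voom, 12 group means of age, sex and cell type, the mouse as a random effect (consensus correlation 0.124), and TREAT against a log2 fold change of 1, with Benjamini-Hochberg adjustment at 0.05. Sexes were weighted equally. Pairing comes from the shared mouse: deviations from group means correlated at 0.121 within a mouse and -0.0252 between mice, with 22 of 34 pairs over 0.1. Ratios used log2 of counts plus 0.5 and exact or 100000-resample permutation tests, two-sided (SciPy 1.17.1, pandas 2.3.3, Python 3.11.15). The fit was tested on simulated data: of features changed by a log2 of 2.5, 86.2% were recovered for cell type with ages pooled (162 of 188), 68.8% for microglia from P6 to 8W (130 of 189) and 59% for the interaction from P6 to 8W (115 of 195), with 0 false calls each. The simulated libraries shared no mouse effect, and the other features changed by a log2 of at most 0.5. That is below the tested threshold, so the 0 false calls say little about calls in the real data. Alternatives covered the test (edgeR, and DESeq2 1.42.0), the replicate block, scaling, filtering, the mouse set aside, duplicate entries and each left-out mouse. The text names the 4 members, the 5 annotated miRNAs most correlated with each 3p arm, and the 3 most abundant of a list, with list members that changed named after their values were seen. The members and lists were chosen with earlier results of these data known.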

Additional observations from a re-analysis of the deposited data

Results flagged for a closer look

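In P6 bulk cells the library of female mouse 5 stood far above the other females for mmu-miR-132-3p, at 1270 CPM beside 228 to 375 (n = 4). In 8W bulk cells female mouse 4 stood far above the other females for mmu-miR-212-3p, at 1209 CPM beside 618 to 820 (n = 6). These were 2 of 36 groups examined for a far value, and chance gives about 1 in 20.

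The age change of mmu-miR-132-3p from P6 to 8W differed between microglia and bulk cells, by -2.18 on the log2 scale (limma TREAT interaction, adjusted p = 0.000669).

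The log2 ratio of miR-132-3p to miR-212-3p, microglia minus bulk cells, differed between all pairs of ages: by -0.56 for P15 minus P6 (permutation test, adjusted p = 0.0369), -1.001 for 8W minus P15 and -1.56 for 8W minus P6 (permutation tests, adjusted p = 0.00012 for both). By sex, the mean was 0.84 at P6 and 0.81 at P15 in females, and 0.80 and -0.29 in males, so the P6 to P15 difference lay in the male values; it was not tested within a sex. The same difference for miR-132-3p to miR-132-5p was -1.46 for 8W minus P15 (permutation test, adjusted p = 0.00261) and -2.30 for 8W minus P6 (permutation test, adjusted p = 0.00016). At P15 the difference between fractions in the ratio of miR-132-3p to miR-212-3p was 1.10 lower in males than in females (male minus female -1.10, exact permutation test, adjusted p = 0.0130). These ratio tests between ages and sexes were chosen after seeing the data.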

How the results depend on the processing

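Over 39 fold changes of the members (cell type, age and interaction), 380 of 411 comparisons with an alternative kept their direction and side of the threshold, 4 lost the call, 21 gained it and 6 changed sign; 22 results kept both in every alternative and left-out mouse. Library size alone ended the calls of mmu-miR-212-3p between fractions at P6 (-1.34) and in bulk cells from P15 to 8W (1.19), and of mmu-miR-132-3p in microglia from P6 to 8W (1.49); P6 female mouse 6 included ended the first (-1.33). Without a fold threshold, calls were gained for mmu-miR-132-3p between fractions at P6 (-0.62) and P15 (-1.38), in microglia from P15 to 8W (1.48), in bulk cells from P6 to P15 (1.24) and in the interaction from P15 to 8W (-1.43), for mmu-miR-212-3p in microglia from P6 to P15 (1.12) and P15 to 8W (1.24), in bulk cells from P6 to P15 (1.34) and in the interaction from P6 to 8W (-0.64), and for mmu-miR-132-5p in bulk cells from P6 to P15 (0.69). mmu-miR-132-3p between fractions at P15 passed with edgeR (-1.35), the mouse as a fixed replicate block (-1.38), scaling by library size alone (-1.58) or by DESeq2 size factors (-1.46), no filter (-1.47), at least 10 counts in 12 libraries (-1.62) and entries summed (-1.44). In microglia from P15 to 8W it passed with edgeR (1.48). mmu-miR-212-3p in bulk cells from P6 to P15 passed with DESeq2 size factors (1.46), library size alone (1.49) and the 10-count filter (1.44). The interaction of mmu-miR-132-5p from P6 to 8W, near 0, changed sign with edgeR (0.055), DESeq2 (0.093), the fixed replicate block (0.029), DESeq2 size factors (0.012), no filter (0.052) and entries summed (0.012). The fixed replicate block changed no other call of those it could give; comparisons between ages have no value under it, since each mouse has 1 age. A pseudocount of 1 ended the call of the miR-132-3p to miR-132-5p ratio in microglia from P6 to 8W (-0.94). With miR-124-3p left out of the marker sum, r passed for mmu-miR-132-3p in P6 microglia (0.854) and for mmu-miR-212-3p in P6 microglia (0.909), P15 microglia (0.787), P15 bulk (0.785) and 8W bulk (0.677). The cause of these changes was not tested.

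Leaving out 1 mouse gave, where a call or sign changed, -2.43 to -1.73 for mmu-miR-132-5p and -1.51 to -1.37 for mmu-miR-212-3p between fractions at P6, -1.54 to -1.35 for mmu-miR-132-3p at P15, 1.39 to 1.67 for mmu-miR-132-3p in microglia from P15 to 8W (past the test without P15 male mouse 4), 1.31 to 1.57 for mmu-miR-212-3p in bulk cells from P6 to P15, and, for the interaction of mmu-miR-132-5p, -0.49 to 0.21 (P6 to P15), -0.15 to 0.35 (P15 to 8W) and -0.32 to 0.38 (P6 to 8W). For the ratio of miR-132-3p to miR-212-3p it gave 0.17 to 0.39 between fractions at P15 (past the test without P15 male mouse 5) and -0.51 to -0.37 in microglia from P6 to 8W. For miR-132-3p to miR-132-5p it gave 0.55 to 0.94 between fractions at P15, -0.40 to 0.027 in microglia from P6 to P15, -1.27 to -0.83 in microglia from P6 to 8W and 0.43 to 0.74 in bulk cells from P15 to 8W. Leaving out mice for ratios was added after seeing the data. Over all features, calls without a fold threshold were 1.63 to 15.8 times as many, and edgeR called 15 higher and 32 lower against 8 and 23 in microglia from P6 to P15, and 22 and 61 against 19 and 30 from P15 to 8W. Library size alone shifted the median of all features by -0.475 to 0.154 and moved the split of calls by over 10 percentage points in 7 comparisons: from P6 to 8W it gave 39 higher and 175 lower against 77 and 101 in microglia, and 101 and 177 against 142 and 133 in bulk cells; from P15 to 8W it gave 11 and 61 against 19 and 30 in microglia, and 30 and 105 against 65 and 53 in bulk cells. The 10-count filter moved the split of calls by over 10 percentage points in 6 comparisons, and DESeq2 in 4. With that filter 148 of 775 features were higher and 231 lower in microglia than in bulk cells at P15. The main fit had 228 and 200 of 1072. The ratio of mmu-miR-212-3p to mmu-miR-212-5p was not computed, since the latter was at 0 in 51 of 68 libraries. Counts of mmu-miR-132-5p, at most 17 in P6 microglia, limit the precision of its P6 values.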

Other observations

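P6 female mouse 6 was left out of the main comparisons, and its values follow as CPM of the library total. mmu-miR-132-3p stood at 568.3 in its microglia and 573 in its bulk cells, mmu-miR-212-3p at 78.8 and 119, and mmu-miR-132-5p at 3.87 and 13.3. mmu-miR-212-5p had 0 counts in its microglia and 2 in its bulk cells.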
